A study of Mus musculus with 22 samples.

Results

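The 9 genes described here encode proteins that remove or read DNA methylation in mouse cells: the dioxygenases Tet1, Tet2 and Tet3, the DNA glycosylases Tdg and Mbd4, the adaptor proteins Gadd45a and Gadd45b, and the methyl-CpG binding proteins Mbd1 and Mbd2. They were taken as a named list, by gene symbol, from the 47729 genes counted in each library, and all 9 had enough reads to be tested in every comparison. RNA from mouse embryonic stem (ES) cells was sequenced in 22 libraries, which form 2 sets. The untreated set held 3 libraries of unedited cells titled E14-chen (E14, a mouse ES cell line), 1 library each of Dux-KO clones 15, 22 and 52, and 1 library each of Dux n=1 clones 17, 22, 31 and 40 (titled Duxnto1). The treated set held 2 libraries each of WT, Dux-KO22 and Dux-N22 cells given either the solvent DMSO or GSK-3484862, a compound that causes degradation of the maintenance DNA methyltransferase DNMT1. The edited cells were made with CRISPR-Cas9 and are named for the Dux cluster, a tandem array of genes for a transcription factor of the 2-cell embryo. All cells were grown in serum with leukaemia inhibitory factor, and treatment lasted 3 days. The dose is given as 1 uM in 1 place of the deposited descriptions and as 2 uM in another, so it is not certain. KO22 and N22 appear to be 1 clone each, so genotype and clone cannot be told apart in the treated set. For E14 and the treated groups nothing in the labels says that the libraries came from separate cultures, so their spread may be technical. The p-values reflect only how far the libraries of a set spread. Each Dux-KO or Dux n=1 library is a different clone, so in the untreated set the spread includes that between clones. There, edited clones were set against unedited cells, so Dux status cannot be told apart from editing or clonal derivation.

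The TET enzymes oxidise 5-methylcytosine to 5-hydroxymethylcytosine and on to 5-formylcytosine and 5-carboxylcytosine. TDG cuts the last 2 of these out of DNA, and base excision repair fills the gap with an unmodified cytosine. MBD4 binds methylated CpG and removes the thymine left when 5-methylcytosine is deaminated. GADD45 proteins are small stress-induced nuclear proteins that have been reported to couple repair to demethylation, besides their roles in cell cycle arrest and p38 signalling. MBD1 and MBD2 bind methylated CpG and recruit repressors, MBD2 as part of the NuRD deacetylase complex. ES cells are known for high TET1 and TET2 and little TET3, and the question put to the treated set by the study's design was how ES cells with altered Dux respond when methylation is lost.

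The 250 bases before the RefSeq gene start (GRCm38.p6) are shown for Tet2, Tet3 and Gadd45b. With the compound Tet2 fell and Tet3 rose in every genotype, and Gadd45b fell in WT and N22 and was not called in KO22. CpG dinucleotides, the sites at which DNMT1 can maintain methylation, are in capitals, whether or not they are methylated in these cells. Each sequence is written 5′ to 3′ on the gene's own strand. Tet2 is at chr3:133544391-133544640 on the minus strand, Tet3 at chr6:83441679-83441928 on the minus strand and Gadd45b at chr10:80929841-80930090 on the plus strand. The Tet2 and Tet3 windows lie inside the genes as counted, whose 5′ ends are at 133545139 and 83459084. So does the Tet1 window, not shown (62887325-62887574, 5′ end of the gene 62899118). Part of the counted RNA may therefore start upstream of these windows.
Tet2: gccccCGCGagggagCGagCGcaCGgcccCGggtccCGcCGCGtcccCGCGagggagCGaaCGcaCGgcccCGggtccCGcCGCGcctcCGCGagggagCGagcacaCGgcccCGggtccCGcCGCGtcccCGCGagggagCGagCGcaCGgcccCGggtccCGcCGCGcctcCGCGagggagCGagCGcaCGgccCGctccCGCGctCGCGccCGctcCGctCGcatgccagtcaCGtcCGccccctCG
Tet3: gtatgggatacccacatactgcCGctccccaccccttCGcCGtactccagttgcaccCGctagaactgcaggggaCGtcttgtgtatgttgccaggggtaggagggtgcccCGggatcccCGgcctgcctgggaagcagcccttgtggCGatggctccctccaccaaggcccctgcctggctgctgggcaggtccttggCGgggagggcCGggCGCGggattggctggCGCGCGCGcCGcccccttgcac
Gadd45b: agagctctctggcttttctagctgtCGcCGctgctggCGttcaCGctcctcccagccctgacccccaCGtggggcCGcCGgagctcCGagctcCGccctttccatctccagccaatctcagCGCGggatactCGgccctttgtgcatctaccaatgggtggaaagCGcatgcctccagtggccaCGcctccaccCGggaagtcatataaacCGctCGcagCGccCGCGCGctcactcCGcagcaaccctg
The Tet2 window held 51 CpG, more than 99.9% of 32851 promoter windows of the same length, whose median was 6. Tet3 held 17 CpG, Gadd45b 22, Mbd4 22, Tdg 19, Tet1 15 and Gadd45a 11, all above that median. The letters TATAAA, searched on both strands and present in 12.4% of windows, were found in Gadd45b and in none of the other 6 windows searched. The letters CACGTG, which read the same on both strands and are in 6.02% of windows, were found once each in Gadd45b and Tdg. These are letter matches only, and no methylation or binding was measured here.

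In the files' own annotation (Ensembl 84 on GRCm38) counts were summed over all exons of a gene. Tet1 lies at chr10:62804570-62899118, Tet2 at chr3:133463679-133545139 and Tet3 at chr6:83362373-83459084, all on the minus strand. Tdg lies at chr10:82629828-82650799 on the plus strand and Mbd4 at chr6:115840697-115853371 on the minus strand. Gadd45a lies at chr6:67035096-67037457 on the minus strand and Gadd45b at chr10:80930091-80932204 on the plus strand. Mbd1 (chr18:74268272-74282685) and Mbd2 (chr18:70568189-70626131) lie on the plus strand of the same chromosome. Counting did not use strand, and 19.1% of the exon bases of Gadd45a are shared with the antisense gene E230016M11Rik, which had at most 11 counts in a library. Reads of the 2 cannot be told apart there.

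Libraries held between 15803194 and 19427794 assigned read pairs. All 8 ES cell markers were present in every library, with summed levels of 4986 to 6161 CPM (counts scaled to a common library size and for composition, within each set) in untreated cells, 5383 to 5920 with DMSO and 4274 to 4397 with GSK-3484862. The mitochondrial share of counts was 1.66% to 2.39% with DMSO and 2.66% to 3.20% with GSK-3484862. The summed level of 12 markers of 2-cell-like cells in WT was 7.90 and 8.61 CPM with DMSO and 88.5 and 91.3 with the compound. In N22 it was 3.23 and 3.76 CPM with DMSO and 38.6 and 42.4 with the compound. In KO22 it was at most 0.262 CPM under either condition, with up to 10 of the 12 at 0 in a treated library and all 12 in a DMSO library. The 7 primitive endoderm markers summed to 5.01 to 9.45 CPM with DMSO and 10.8 to 19.98 with GSK-3484862, and the 6 primed epiblast and germ layer markers to 41.3 to 47.7 and 61.9 to 102.7. Over the treated set 7 trophoblast markers summed to 58.2 to 119 CPM, and 8 fibroblast markers to 23.8 to 48.8, with up to 5 of the 8 at 0 in a library. The part of these markers in the responses described next was not tested, and in bulk RNA a change in the share of a cell type cannot be told apart from a change per cell. Duxf3, the Dux gene counted here, had 0 counts in all KO22 libraries and 0 and 1 in Dux-KO clones 15 and 52. It had 5 in the library labelled as Dux-KO clone 22, against 0 to 1 in E14, so the count does not check that label. That library also held 49 counts of the Zscan4 family of 2-cell-like markers. Clones 15 and 52 held 5 and 22, E14 libraries 86 to 92, and KO22 libraries of the treated set 0 or 1. Results for Dux-KO as a group include this library.

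Levels per summed exon length differed between the 9 genes. That length exceeds the longest transcript, at 5374 against 3502 bases for Tdg, 5280 against 3614 for Mbd4 and 1764 against 1223 for Gadd45a. Other lengths were not tried, and Tdg can lose reads to near-identical copies, so the order of genes between Tet1 and Tet3 is uncertain. Tet1 was the most abundant in every treated library, at 106 to 172 TPM (counts per summed exon length, scaled to a common total, with a median of 118). Gadd45b (26.9 to 59.0 TPM, median 34.2) and Gadd45a (21.2 to 41.6, median 32.5) followed, and their ranges overlapped. Tdg, Mbd1, Mbd2 and Tet2 lay close together, with medians of 23.7, 20.7, 20.5 and 20.4 TPM and overlapping ranges. Mbd4 had a median of 14.7 TPM (10.96 to 20.3). Tet3 was lowest at 1.31 to 2.97 TPM (median 2.14), below every other member in every library, and its lowest count in any library of either set was 124. The untreated set gave the same top and bottom, with medians of 108 TPM for Tet1 and 1.23 TPM for Tet3. Gadd45a (median 37.5 TPM) was above Gadd45b (27.0) there, again with overlapping ranges.

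**Figure D1:**
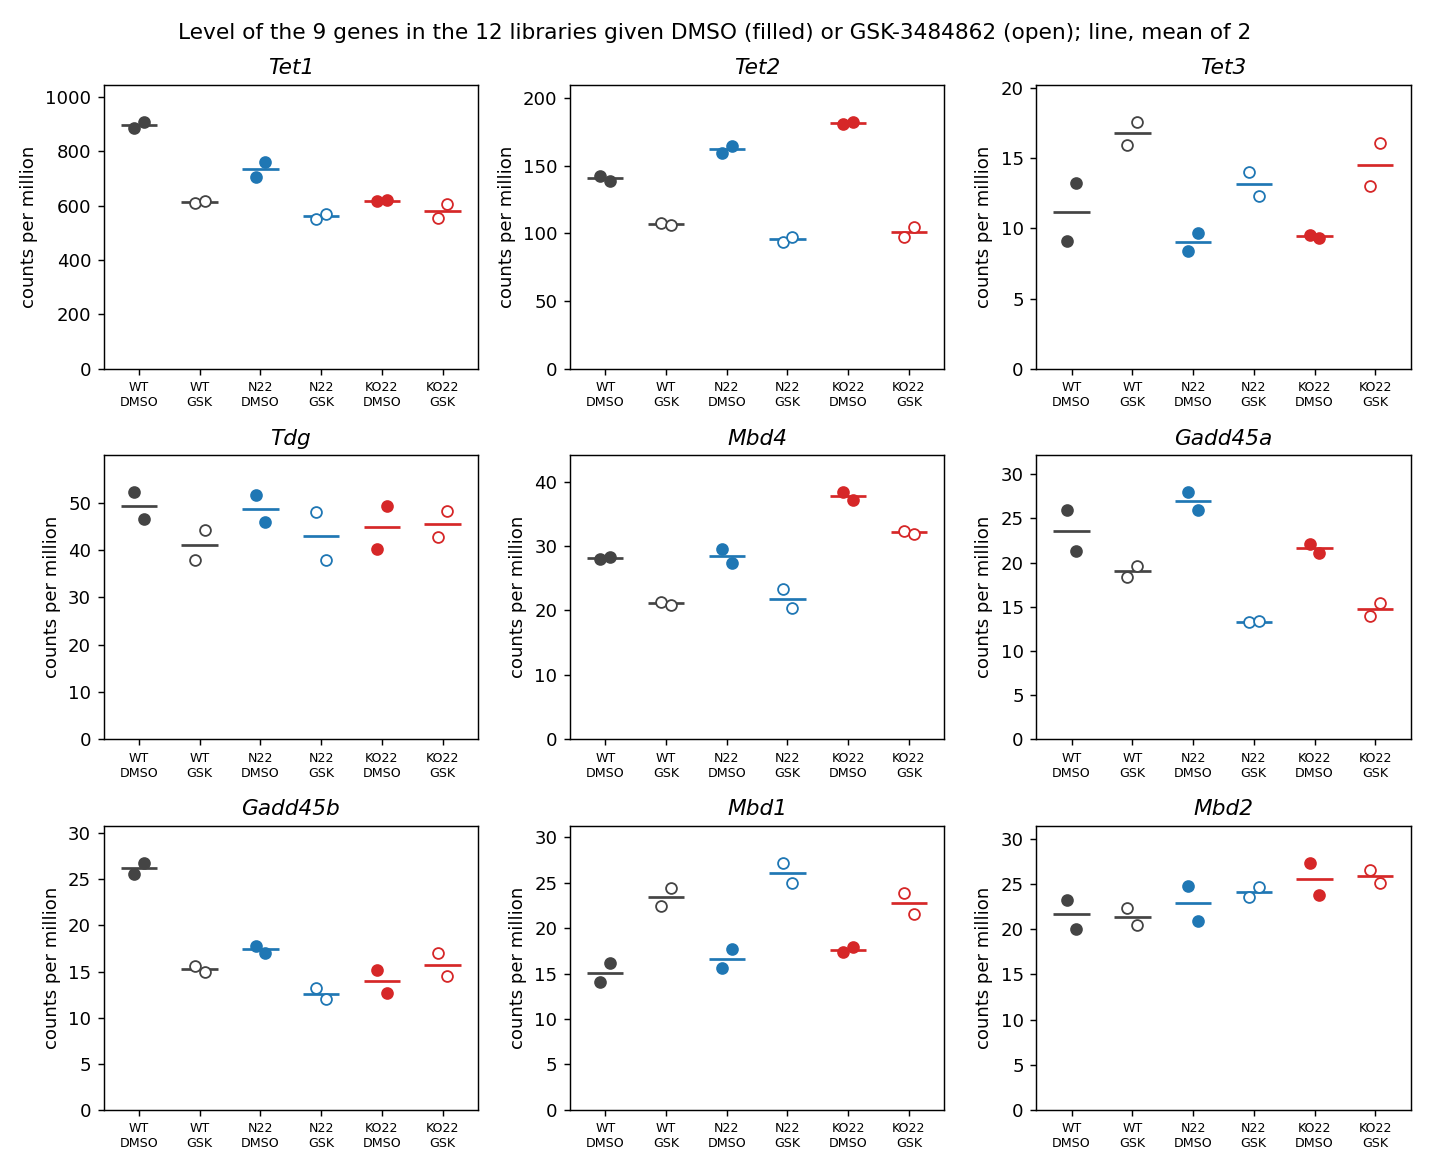
CPM (linear axis from 0) of each of the 9 genes in the 12 treated libraries, one panel a gene and one point a library, grouped by genotype and by DMSO or GSK-3484862. Tet1 falls from 887 and 909 CPM in WT with DMSO to 611 and 619 with the compound, while Tet3 and Mbd1 lie higher with the compound in all 3 genotypes.

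With GSK-3484862, RNA of Tet2, Mbd4 and Gadd45a fell and RNA of Tet3 and Mbd1 rose in all 3 genotypes. RNA of Tet1 and Gadd45b fell in WT and N22, and Tdg and Mbd2 passed the test in none. In KO22 the Tet1 difference was only -0.09, and its call was lost with an offset for GC content and without some single libraries. A gene was called at an adjusted p below 0.05 in edgeR's quasi-likelihood test, with Benjamini-Hochberg adjustment over all genes tested. In WT 7 of the 9 genes were called, where 56.8% of all tested genes were called. Of the 7, 2 were higher (28.7% of all genes) and 5 lower (28.1%). In KO22 6 were called, against 46.0% of all genes, 2 of them higher (24.8%) and 4 lower (21.2%). In N22 7 were called, against 53.0%, 2 of them higher (26.9%) and 5 lower (26.0%). With such a share of all genes called, the members' counts alone say little about the list. The median log2 fold change of the 9 genes was -0.31 in WT, 0.02 in KO22 and -0.38 in N22, beside 0.00 over all genes in each.

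Tet1, the main TET enzyme of ES cells, stood with DMSO at 887 and 909 CPM in WT, 706 and 762 in N22, and 617 and 622 in KO22. With the compound it stood at 611 and 619 in WT, 549.9 and 571 in N22, and 557 and 605 in KO22. The genotypes were ordered without overlap under DMSO and lay close together under the compound, where the ranges of KO22 and N22 overlapped. The fall in log2 units was -0.55 ± 0.03 (SE; edgeR adjusted p 4.99e-19) in WT and -0.39 ± 0.03 (9.78e-14) in N22. In KO22 the difference was -0.09 ± 0.03 (edgeR adjusted p = 0.0239). That call was lost with an offset for GC content (-0.04, adjusted p 0.308), without KO22 DMSO library 1 (adjusted p 0.0669) or 2 (0.116), and without KO22 GSK library 1 (-0.03, adjusted p 0.529), and the value was -0.16 without KO22 GSK library 2. The response of KO22 differed from that of WT by 0.45 ± 0.05 (edgeR adjusted p 1.64e-10), and the response of N22 minus that of KO22 was -0.30 ± 0.05 (7.4e-06). N22 also differed from WT, by 0.16 ± 0.05 (edgeR adjusted p 0.0273), but DESeq2 (adjusted p 0.112), DESeq2's size factors in edgeR (0.061) and leaving out any of 5 libraries ended this call: N22 DMSO library 1 (0.10, adjusted p 0.292), N22 GSK library 2, WT DMSO library 2, or WT GSK library 1 or 2 (0.13 to 0.16, adjusted p 0.0629 to 0.156).

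Tet2, whose protein lacks the CXXC DNA-binding domain of TET1, was ordered the other way under DMSO. It stood with DMSO at 143 and 138 CPM in WT, 159 and 165 in N22, and 181 and 182 in KO22. Under GSK-3484862 the values were 107 and 106 in WT, 93.7 and 97.4 in N22, and 97.0 and 105 in KO22. Every treated library was below every DMSO library. The log2 fall was -0.40 ± 0.05 (edgeR adjusted p 3.54e-11) in WT, -0.76 ± 0.05 (1.25e-22) in N22 and -0.84 ± 0.05 (4.86e-25) in KO22. It was larger than in WT by -0.36 ± 0.07 in N22 (edgeR adjusted p 4.84e-05) and by -0.45 ± 0.07 in KO22 (9.98e-08). The 2 edited lines did not pass the test against each other (0.08, 95% interval -0.05 to 0.22).

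Tet3, the TET enzyme of the oocyte and zygote, was the only TET gene that rose. It stood with DMSO at 9.08 and 13.2 CPM in WT, 8.35 and 9.67 in N22, and 9.51 and 9.34 in KO22. Treated libraries had 16.0 and 17.6 in WT, 14.01 and 12.3 in N22, and 13.0 and 16.1 in KO22. Within each genotype the treated libraries were above the DMSO libraries, and WT DMSO library 2 was the highest of the DMSO libraries. The rise was 0.59 ± 0.13 (edgeR adjusted p 0.000182) in WT, 0.63 ± 0.14 (0.000185) in KO22 and 0.54 ± 0.14 (0.00122) in N22. WT DMSO library 1 decided the WT value: without it the rise was 0.34 with an adjusted p of 0.0542, and without WT DMSO library 2 it was 0.89. The responses did not pass the test of a difference between genotypes, with a 95% interval of -0.35 to 0.43 for KO22 minus WT and -0.44 to 0.35 for N22 minus WT.

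The share of Tet1 among the TET transcripts lay closer together between genotypes with the compound, given here as a description with no test. Of summed TET TPM, Tet1 made up 87.0% and 87.3% in WT with DMSO, 82.9% and 83.4% in N22 and 78.8% in both KO22 libraries. With the compound it was 85.0% to 85.7% in all 6 libraries. The summed TET level fell from 192 and 197 TPM to 138 and 139 in WT, from 152 and 170 to 124 and 129 in N22, and from 149 and 150.4 to 124 and 137 in KO22. Tet3 stayed a small part of the sum, at 0.785% to 1.12% with DMSO and 1.62% to 2.13% with the compound.

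**Figure D2:**
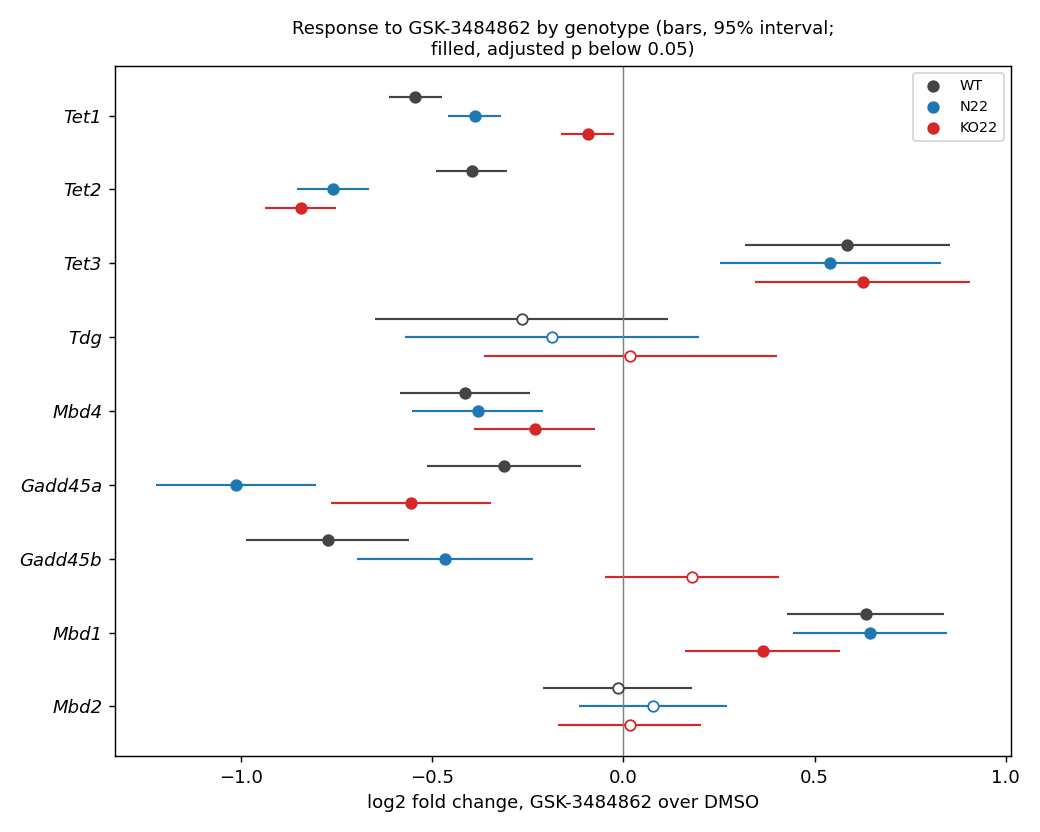
Log2 fold change with GSK-3484862 over DMSO (x axis) for each of the 9 genes in WT, KO22 and N22, with 95% intervals from edgeR. Tet2, Mbd4 and Gadd45a lie below 0 and Tet3 and Mbd1 above 0 in all 3 genotypes, while Gadd45b lies at -0.77 in WT and 0.18 in KO22.

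Of the glycosylases, Mbd4 fell in the 3 genotypes and Tdg did not pass the test. Mbd4 stood with DMSO at 28.0 and 28.2 CPM in WT, 29.6 and 27.3 in N22, and 38.3 and 37.1 in KO22. After treatment it stood at 21.3 and 20.9 in WT, 23.3 and 20.4 in N22, and 32.3 and 31.9 in KO22. KO22 was the highest under both conditions, and in each genotype the treated libraries were lower. Chromosome 6 as a whole, where Mbd4, Tet3 and Gadd45a lie, was also higher in KO22: over its 805 tested genes the median log2 difference from WT was 0.27 with DMSO and 0.35 with the compound, against -0.06 and -0.01 elsewhere. Its median response to the compound was -0.01 in KO22 and 0.03 in WT. The fall was -0.41 ± 0.09 in WT (edgeR adjusted p 2.86e-05), -0.38 ± 0.09 in N22 (0.000129) and -0.23 ± 0.08 in KO22 (0.0121). The KO22 call was lost without KO22 DMSO library 1 (adjusted p 0.0792) or KO22 GSK library 2 (0.0621). The difference of responses, KO22 minus WT, was 0.18 with a 95% interval of -0.05 to 0.41.

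Tdg stood with DMSO at 52.1 and 46.5 CPM in WT, 51.6 and 45.8 in N22, and 40.2 and 49.4 in KO22. Treated libraries stood at 37.8 and 44.1 in WT, 48.0 and 37.8 in N22, and 42.6 and 48.1 in KO22. Groups overlapped in N22 and KO22 and not in WT. The log2 difference was -0.27 (95% interval -0.65 to 0.12; edgeR adjusted p 0.205) in WT, -0.19 (-0.57 to 0.20; 0.381) in N22 and 0.02 (-0.37 to 0.40; 0.947) in KO22. Tdg has near-identical copies in the genome, and reads that map to several places were not counted. One copy, the processed pseudogene Gm9855, matched the longest Tdg transcript at 99.2% over 1194 bases and held 1141 to 1574 counts in a library, more than Tdg, so the Tdg values are uncertain. Gm9855 itself was not called in any of the 3 genotypes (log2 difference -0.07 in WT). Summed with its copies, Tdg was called in WT (-0.14, edgeR adjusted p 0.0101), as it was without a filter on low counts (-0.27, adjusted p 0.00545) and in a fit of the WT groups alone (-0.25, 0.00132). In N22 it was called without the filter (-0.21, adjusted p 0.0379) but not with the copies (0.121).

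The Gadd45 genes differed from each other and between genotypes. Gadd45a stood with DMSO at 26.0 and 21.3 CPM in WT, 27.9 and 25.9 in N22, and 22.1 and 21.1 in KO22. GSK-3484862 libraries had 18.4 and 19.6 in WT, 13.2 and 13.4 in N22, and 13.98 and 15.4 in KO22. The treated libraries of WT were the highest of the treated libraries. The fall was -1.01 ± 0.11 in N22 (edgeR adjusted p 5.45e-13), -0.56 ± 0.11 in KO22 (9.72e-06) and -0.31 ± 0.10 in WT (0.00637). The WT call was lost with DESeq2 (adjusted p 0.0515), without WT GSK library 1 (0.0715) and without WT DMSO library 1, where the value was -0.16 (0.293). The fall in N22 was larger than in WT by -0.70 ± 0.15 (edgeR adjusted p 0.000379) and than in KO22 by -0.46 ± 0.15 (0.0216). The last call was lost with DESeq2 (adjusted p 0.0968) and without KO22 DMSO library 2, KO22 GSK library 2, N22 DMSO library 1 or N22 GSK library 1 (-0.38 to -0.45, adjusted p 0.0587 to 0.124).

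Gadd45b showed the widest difference between genotypes. It stood with DMSO at 25.6 and 26.8 CPM in WT, 17.8 and 17.0 in N22, and 15.2 and 12.6 in KO22. With GSK-3484862 it was at 15.6 and 15.0 in WT, 13.2 and 12.02 in N22, and 17.0 and 14.5 in KO22. The 2 WT DMSO libraries were above the other 10, and the KO22 groups overlapped. Gadd45b fell by 0.77 ± 0.11 on the log2 scale in WT (edgeR adjusted p 4.18e-09) and by 0.47 ± 0.12 in N22 (0.000466). In KO22 the difference was 0.18 with a 95% interval of -0.05 to 0.41 (edgeR adjusted p 0.198). The response of KO22 differed from that of WT by 0.95 ± 0.16 (edgeR adjusted p 1.15e-06), and that of N22 from KO22 by -0.65 ± 0.16 (0.00224). N22 minus WT was 0.31 (95% interval -0.01 to 0.62) and did not pass.

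The 2 readers behaved differently. Mbd1, which has CXXC domains besides its methyl-CpG binding domain, stood with DMSO at 14.05 and 16.2 CPM in WT, 15.6 and 17.7 in N22, and 17.4 and 17.9 in KO22. Under the compound it lay at 22.5 and 24.5 in WT, 27.2 and 25.01 in N22, and 23.9 and 21.6 in KO22. Every treated library was above every DMSO library. The rise was 0.63 ± 0.10 in WT (edgeR adjusted p 2.6e-07), 0.65 ± 0.10 in N22 (1.39e-07) and 0.36 ± 0.10 in KO22 (0.00213). The KO22 call was lost without KO22 GSK library 1 (0.29, adjusted p 0.0547). The difference of responses, KO22 minus WT, was -0.27 with a 95% interval of -0.56 to 0.02.

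Mbd2 lay between 20.1 and 27.3 CPM in all 12 libraries and was not called in any genotype. Its log2 difference was -0.02 (95% interval -0.21 to 0.18) in WT, 0.02 (-0.17 to 0.20) in KO22 and 0.08 (-0.12 to 0.27) in N22. Under both conditions Mbd2 was higher in KO22 than in WT, by 0.24 ± 0.10 with DMSO (edgeR adjusted p 0.0297) and by 0.27 ± 0.10 with the compound (0.0306). With DESeq2 neither call held (adjusted p 0.0693 and 0.134). The first was also lost without KO22 DMSO library 1 (0.14, adjusted p 0.353) or WT DMSO library 2 (0.14, 0.359). The other was also lost with the GC offset (adjusted p 0.0597) and without WT GSK library 2 or either KO22 GSK library (0.21 to 0.30, adjusted p 0.0624 to 0.255).

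The 6 members called in KO22, where the 12 markers of 2-cell-like cells together stayed at most 0.262 CPM, were Tet1, Tet2, Tet3, Gadd45a, Mbd1 and Mbd4. The calls of Tet1, Mbd1 and Mbd4 there were lost without single libraries, as given above. Of the 3 comparisons between responses, 3 members were called in KO22 minus WT (against 31.8% of all genes), 3 in N22 minus WT (against 11.1%) and 3 in N22 minus KO22 (against 18.6%). These 3 comparisons share libraries.

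The genotypes also differed after 3 days with DMSO alone. There, 5 members were called between KO22 and WT (51.9% of all genes), 3 between N22 and WT (25.4%) and 5 between N22 and KO22 (39.1%). Tet1 was lower than in WT by -0.54 ± 0.03 in KO22 (edgeR adjusted p 1.34e-18) and by -0.29 ± 0.03 in N22 (3.3e-09). Tet2 was higher than in WT by 0.37 ± 0.05 in KO22 (edgeR adjusted p 2.06e-10) and by 0.20 ± 0.05 in N22 (0.000388). Gadd45b was lower by -0.91 ± 0.11 in KO22 (edgeR adjusted p 5.37e-11) and by -0.59 ± 0.11 in N22 (9.74e-06). Mbd4 was higher in KO22 than in WT by 0.42 ± 0.08 (edgeR adjusted p 6.75e-06), and N22 was lower than KO22 by -0.41 ± 0.08 (2.25e-05). The chromosome 6 median went the same way, at 0.27 for KO22 against WT (340 genes higher and 116 lower of 805) and -0.37 for N22 against KO22 (59 higher, 365 lower), and its part in the Mbd4 difference was not tested. N22 lay above KO22 in Tet1 by 0.25 ± 0.03 (edgeR adjusted p 6.46e-08) and below it in Tet2 by -0.16 ± 0.05 (0.0023).

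N22 with DMSO lay above KO22 in Gadd45a by 0.32 ± 0.10 (edgeR adjusted p 0.00717) and in Gadd45b by 0.32 ± 0.11 (0.0177). Both of these calls were lost without KO22 DMSO library 2 (0.28, adjusted p 0.0745, for Gadd45a, and 0.19, 0.304, for Gadd45b) or N22 DMSO library 1 (0.26, adjusted p 0.098, and 0.29, 0.103), the Gadd45b call also with DESeq2 (0.0729). The Tet2 call between N22 and KO22 was lost without N22 DMSO library 1 (-0.14, adjusted p 0.0534), which left 2 members called there. Some values passed only without WT DMSO library 1: Tet3 for KO22 against WT (-0.49, adjusted p 0.00872; -0.24 with it) and for N22 against WT (-0.55, 0.00852; -0.31 with it), and Gadd45a for N22 against WT (0.34, 0.0363; 0.19 with it), which made 5 called for N22. Mbd1, 0.22 higher in KO22 than in WT (edgeR adjusted p 0.072), passed without WT DMSO library 2 (0.33, 0.0361). It also passed with DESeq2's size factors (0.25, adjusted p 0.0456), without the low-count filter (0.26, 0.0389) and in a fit of those groups alone (0.26, 0.0343).

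With the compound, 3 members were called between KO22 and WT (22.4% of all genes), 3 between N22 and WT (9.65%) and 2 between N22 and KO22 (24.6%). Tet1, Tet2 and Gadd45b, called between KO22 and WT with DMSO, were at -0.08 (95% interval -0.15 to -0.01), -0.08 (-0.17 to 0.02) and 0.04 (-0.18 to 0.27) with it, none called, and the differences of responses given above tested this change. Tet1 for KO22 against WT passed without KO22 GSK library 2 (-0.15, edgeR adjusted p 0.00254). Mbd4 was higher in KO22 with the compound too, by 0.61 ± 0.08 over WT (edgeR adjusted p 2.88e-08), and N22 was lower than KO22 by -0.56 ± 0.08 (2.08e-07). The chromosome 6 median was again shifted, at 0.35 (313 genes higher, 58 lower) and -0.38 (30 higher, 346 lower). Gadd45a was lower than in WT by -0.51 ± 0.11 in N22 (edgeR adjusted p 0.000582) and by -0.37 ± 0.11 in KO22 (0.00665), where the chromosome 6 median lay the other way.

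Several of these calls under the compound rested on single libraries. The Gadd45a call in KO22 was lost without WT GSK library 2 (-0.33, adjusted p 0.0745) or KO22 GSK library 1 (-0.30, 0.102). N22 was below WT in Tet1 by -0.13 ± 0.03 (edgeR adjusted p 0.00731) and in Tet2 by -0.16 ± 0.05 (0.022). The Tet1 call was lost without WT GSK library 2 (adjusted p 0.0902) or N22 GSK library 1 (0.126), and the Tet2 call with DESeq2 (0.0553) and without WT GSK library 1 (0.117) or 2 (0.0714) or N22 GSK library 1 (0.193). Gadd45b was lower in N22 than in KO22 by -0.32 ± 0.12 (edgeR adjusted p 0.0331), a call lost with the GC offset (0.0688), in a fit of those groups alone (0.0524), with DESeq2 (0.114), and without KO22 GSK library 1 (-0.21, 0.35) or N22 GSK library 2 (-0.25, 0.236). Tet1 was called between N22 and KO22 without KO22 GSK library 1 (-0.11, adjusted p 0.0328), against -0.05 with it, and with the replicate block and GC offset together (-0.08, 0.0209). Tet3 was called between N22 and WT in a fit of those groups alone (-0.35, adjusted p 0.0461), and not with all groups (-0.35, 0.0859).

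**Figure D3:**
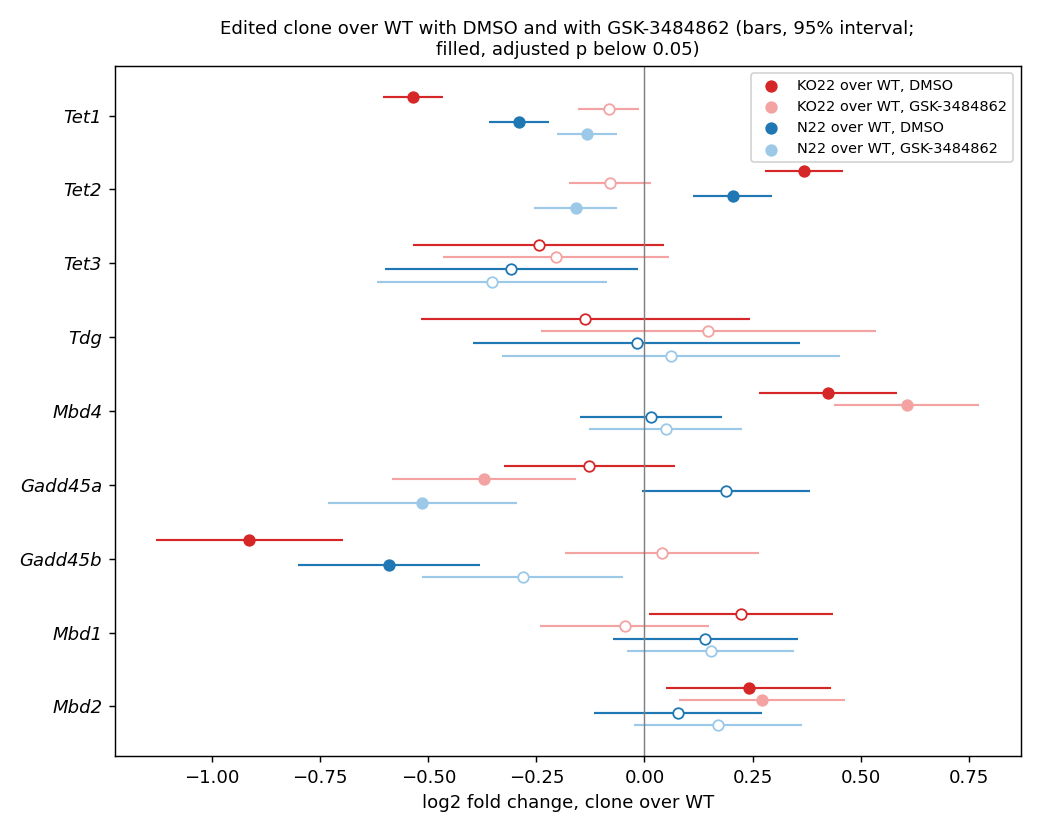
Log2 difference between genotypes (x axis) for each of the 9 genes, with DMSO and with GSK-3484862, with 95% intervals from edgeR. For KO22 against WT, Tet1 moves from -0.54 with DMSO to -0.08 with the compound and Gadd45b from -0.91 to 0.04, while Mbd4 lies at 0.42 and 0.61.

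In the untreated set, Tet1 was the 1 member called. E14 libraries had 806, 759.9 and 778 CPM of Tet1, the library labelled as Dux-KO clone 22 had 479.8, clone 15 had 262 and clone 52 had 471. The Dux n=1 clones 17, 22, 31 and 40 had 617, 571, 569.8 and 523 CPM. All 7 edited libraries were below all 3 E14 libraries, and the Dux-KO libraries below the Dux n=1 libraries. Tet1 was lower in Dux-KO than in E14 by -0.95 ± 0.18 (edgeR adjusted p 0.00649), 1 called member of 9 where 20.4% of all genes were called. Leaving out clone 15 gave -0.71 (adjusted p 0.00195), leaving out the library labelled as Dux-KO clone 22 gave -1.09 (0.00434), and the GC offset gave -0.68 (0.0446). For Dux n=1 against E14 the value was -0.45 ± 0.17 (edgeR adjusted p 0.106), and no member was called where 9.16% of all genes were, although 1 member had an unadjusted p below 0.05 and DESeq2 called 0. In a fit of those groups alone Tet1 passed (-0.43, adjusted p 0.00664). Between Dux n=1 and Dux-KO the difference was 0.50 (95% interval 0.12 to 0.87; edgeR adjusted p 0.848). There edgeR called 0 of all genes (0%), with 856 genes and 1 member at an unadjusted p below 0.05, and DESeq2 called 0.

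Tet2 stood at 166, 149 and 162 CPM in E14. It stood at 105 in the library labelled as Dux-KO clone 22, 60.1 in clone 15 and 133 in clone 52, and at 97.9, 119.7, 147 and 120.3 in Dux n=1 clones 17, 22, 31 and 40. Again all 7 edited libraries were below all 3 E14 libraries, at log2 ratios of -0.11 to -1.40 to the E14 mean, but the clones were spread widely. Chromosome 3, where Tet2 lies, had a median log2 difference from E14 of -0.12 in Dux-KO (29 genes higher, 116 lower of 693). In Dux n=1 it was -0.10 (21 higher, 58 lower), against 0.02 and 0.01 elsewhere. Its part in the Tet2 difference was not tested. The chromosome 10 median, where Tet1 lies, was 0.03 and 0.04. Against E14 the value was -0.68 ± 0.23 (edgeR adjusted p 0.0598) in Dux-KO and -0.39 ± 0.22 (0.261) in Dux n=1. The Dux-KO value passed with DESeq2 (-0.67, adjusted p 0.0356) and without clone 52 (-0.94, 0.0249). The direction for Tet2 in the untreated clones is opposite to that of KO22 and N22 against WT with DMSO, and the 2 sets were not tested against each other.

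The other 7 members were not called in the untreated set, and single clones stood apart. Gadd45b was at 26.5 CPM in Dux-KO clone 15 and 25.6 in Dux n=1 clone 22, against 12.3 to 15.3 in E14 and 9.86 to 13.3 in the other 5 edited libraries. The same 2 clones had the lowest Mbd1, at 10.7 and 11.9 CPM against 13.8 to 18.9 elsewhere. Without clone 15 the Gadd45b difference of Dux-KO from E14 went from 0.28 to -0.23, and without Dux n=1 clone 22 that of Dux n=1 went from 0.20 to -0.15. Mbd4 was at 16.2 to 17.3 CPM in Dux n=1 clones 17 and 31 and the library labelled as Dux-KO clone 22, and at 22.9 to 28.2 in the other 7 libraries. In the library labelled as Dux-KO clone 22 the log2 ratio of Mbd4 to the E14 mean was -0.57. That direction is opposite to KO22 against WT with DMSO (0.42). Whether KO22 is the same clone is not stated, and the 2 sets were not tested against each other. Tet3 (7.30 to 8.63 CPM), Tdg (34.5 to 47.2) and Gadd45a (20.8 to 29.4) overlapped between groups. Mbd2 was higher in every Dux-KO library (20.49 to 24.9 CPM) than in E14 (18.7 to 20.45), and Dux n=1 (18.4 to 22.5) overlapped both. Mbd1 was lower in every Dux n=1 library (11.9 to 16.1 CPM) than in E14 (17.5 to 18.9), while Dux-KO overlapped E14. The median log2 difference from E14 over chromosome 18, where Mbd1 and Mbd2 lie, was -0.14 in Dux-KO and -0.10 in Dux n=1, against 0.02 and 0.01 elsewhere. For chromosome 6 it was 0.20 in Dux-KO (87 genes higher, 23 lower) and 0.03 in Dux n=1. The part of these shifts in the members' values was not tested. The fibroblast markers summed to 12.1 to 13.9 CPM in E14 and 19.7 to 67.8 in the edited libraries, with up to 4 of the 8 at 0 in a library of each group. Trophoblast markers summed to 45.3 to 53.5 CPM in E14 and 56.2 to 86.4 in the edited libraries, and primed epiblast and germ layer markers to 27.0 to 29.1 and 32.8 to 44.8. Markers of 2-cell-like cells summed to 7.30 to 9.07 CPM in E14 and 0.680 to 5.23 in the edited libraries. The 5.23 was in the library labelled as Dux-KO clone 22, where 0 of the 12 markers were at 0 counts. The mitochondrial share was 2.75% to 2.99% in E14 and 2.03% to 2.60% in the edited libraries. None of these marker and mitochondrial ranges overlapped between E14 and the edited libraries, and their part in the Tet1 difference was not tested. ES cell markers did overlap, at 5001 to 5152 CPM in E14 and 4986 to 6161 in the edited libraries. So did primitive endoderm markers, at 8.03 to 9.12 and 7.12 to 10.5 CPM.

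**Figure D4:**
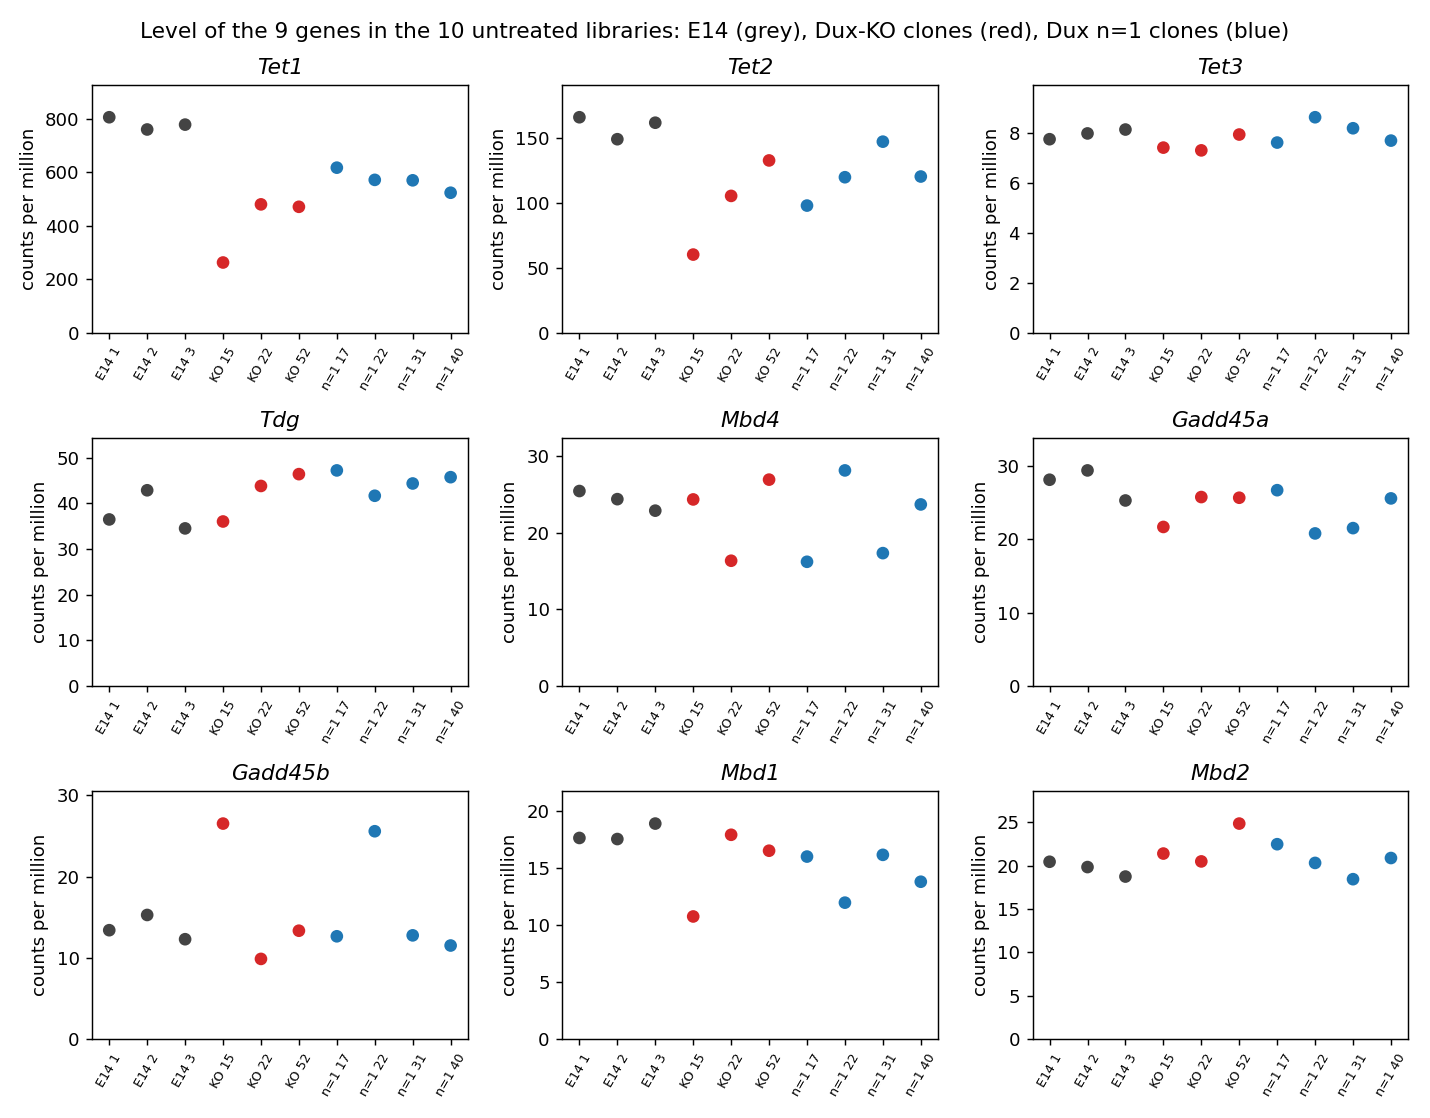
CPM (linear axis from 0) of each of the 9 genes in the 10 untreated libraries, one point a library, for E14, Dux-KO clones and Dux n=1 clones (the point KO 22 is the library labelled as Dux-KO clone 22). Tet1 lies at 759.9 to 806 CPM in E14 and at 262 to 617 in the edited libraries, and Gadd45b stands at 26.5 and 25.6 in Dux-KO clone 15 and Dux n=1 clone 22.

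Base excision repair fills the gaps that TDG and MBD4 leave, and more of its genes were lower than higher with the compound. Of 23 base excision repair genes, 15 were lower and 3 higher in WT (median log2 fold change -0.34, beside 0.00 over all genes), 14 lower and 0 higher in N22 (-0.31), and 11 lower and 0 higher in KO22 (-0.17). Over all genes 28.1% were lower and 28.7% higher in WT, 26.0% and 26.9% in N22, and 21.2% and 24.8% in KO22, and these shares are the background for each list that follows. Genes of each list were picked for naming by the smallest p among those called in a comparison, at most 3. Where a genotype is not given for a gene, its value there is not printed, and no difference between genotypes is meant. Mutyh, a glycosylase that removes adenine opposite oxidised guanine, was at -1.12 in WT, -0.95 in N22 and -0.78 in KO22, each called. Parp1, which binds DNA strand breaks, was at -0.44 in WT, -0.32 in N22 and -0.10 in KO22, each called. Tdp1, which clears blocked DNA ends, was at -0.52 in WT. Hmces, a shield for abasic sites in single-stranded DNA, was at -0.62 in N22 and -0.53 in KO22. Pcna, the sliding clamp of DNA polymerases, was at -0.47 in KO22.

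Partners and regulators of TET enzymes went in both directions. Of 17, 4 were higher and 9 lower in WT (median -0.14), 6 and 9 in N22 (-0.16), and 5 and 8 in KO22 (-0.07), where 56.8%, 53.0% and 46.0% of all genes were called. Idh1, which makes the TET cosubstrate 2-oxoglutarate, rose by 0.90 in WT, 1.09 in N22 and 0.88 in KO22. Sin3a, a corepressor scaffold that binds TET1, fell by 0.69 in WT and 0.64 in N22. Cxxc5, a CXXC-domain regulator of TET2, fell by 0.77 in WT, and Ogt, the glycosyltransferase that binds TET proteins, by 0.50 in N22. Nanog, a pluripotency factor that binds TET1 and TET2, fell by 0.64 in KO22. Dppa3, also on this list, rose by 3.44 in KO22.

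Among 15 NuRD and MBD1 partners, 4 were higher and 10 lower in WT (median -0.18), 3 and 8 in N22 (-0.14), and 5 and 7 in KO22 (-0.08), against 28.7% higher and 28.1% lower over all genes in WT, 26.9% and 26.0% in N22, and 24.8% and 21.2% in KO22. Atf7ip, an MBD1 partner that stabilises the histone methyltransferase SETDB1, rose by 0.82 in WT, 1.05 in N22 and 1.08 in KO22. Chd4, the remodelling ATPase of NuRD, fell by 0.30 in WT and 0.34 in N22. Hdac1, a NuRD deacetylase, fell by 0.39 in N22 and 0.43 in KO22. Rbbp7, a histone chaperone of NuRD, fell by 0.38 in WT, and Mta1, a NuRD scaffold, rose by 0.44 in KO22. Of 11 other methyl-CpG binding proteins, 4 were higher and 3 lower in WT (median 0.14), 3 and 3 in N22 (0.01), and 3 and 5 in KO22 (-0.11). In WT, Zbtb33, the zinc-finger reader Kaiso, rose by 0.72 and Baz2a, a subunit of the nucleolar remodelling complex, fell by 0.74.

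Of 7 writers and maintenance factors, 2 were higher and 3 lower in WT (median 0.01), 1 and 4 in N22 (-0.17), and 4 and 2 in KO22 (0.21). Dnmt3l, the catalytically inactive partner of the de novo methyltransferases, rose by 1.51 in WT. RNA of Dnmt1, whose protein the compound degrades, fell by 0.32 in WT, and Uhrf1, which brings DNMT1 to DNA, fell by 0.31. Of 4 cytosine deaminases, 1 was higher and 2 lower in WT, and 1 higher and 1 lower in N22 and in KO22. Apobec2 rose by 2.04 in WT, 1.80 in N22 and 0.53 in KO22, and Apobec3 fell by 0.74, 0.84 and 0.60.

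Among 21 relatives and partners of Gadd45 and stress genes, 9 were higher and 7 lower in WT (median 0.04), 10 and 7 in N22 (0.13), and 12 and 5 in KO22 (0.43), where 56.8%, 53.0% and 46.0% of all genes were called. Mdm2, Ccng1 and Cdkn1a are known targets of the tumour suppressor p53, as is Gadd45a. Mdm2, the ubiquitin ligase of p53, rose by 1.39 in WT, 1.72 in N22 and 1.34 in KO22. Ccng1, which encodes cyclin G1, rose by 1.64, 1.92 and 1.22. Cdkn1a, which encodes the cell cycle inhibitor p21, rose by 1.76 in N22 and 1.36 in KO22, and Ddit4, an inhibitor of mTOR signalling, fell by 0.98 in WT.

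In Dux-KO against E14, where 20.4% of all genes were called, 2 of 23 base excision repair genes were higher, Ung (0.67), the uracil glycosylase, and Lig1 (0.31), a DNA ligase. Of the writers 2 were higher, Dnmt3a (0.97) and Uhrf1 (0.40), and Hells (-0.86), a chromatin remodeller, was lower. None of 16 tested TET partners was called. Of the stress genes Chac1 (0.93) was higher, and Ccng1 (-1.11) and Mdm2 (-0.77) were lower. Of the readers and partners, Zbtb33 (-1.03) and Cbx5 (-0.71), a heterochromatin protein, were lower, and of the deaminases Apobec2 (1.51) and Apobec3 (0.37) were higher. In Dux n=1 against E14, where 9.16% of all genes were called, the base excision repair list again had 2 higher, Ung (0.63) and Lig1 (0.34), and the TET partners none. Of 7 writers Dnmt3a (1.154) and Uhrf1 (0.35) were higher, and of 4 deaminases Apobec2 (0.88). Zbtb33 (-0.79) was the 1 of 11 other methyl-CpG binding proteins called. Of 15 NuRD and MBD1 partners Cdk2ap1 (0.69), a NuRD subunit, was higher and Cbx5 (-0.40) lower. Of 21 stress genes Map3k4 (0.38), a kinase that GADD45 proteins activate, was higher, and Ccng1 (-1.14) and Mdm2 (-0.57) were lower.

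Genes with the most similar pattern over the 12 treated libraries were sought for the 3 members with the widest range of group means, by the root mean square difference of centred log2 CPM among 12284 genes. For Gadd45b, with a range of 1.05 log2 units, these were Pim1 (0.11), Plpp5 (0.12) and Zbtb18 (0.13). For Gadd45a (range 1.01) they were Dusp16 (0.14), Impa2 (0.14) and Lyrm9 (0.15), and for Tet2 (range 0.92) they were Gys1 (0.08), Ccnd1 (0.09) and Vangl1 (0.10).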

How the data were processed

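RNA of 22 mouse ES cell libraries was sequenced. Per the submitters' processing notes, reads were processed with fastp 0.23.2, HISAT2 2.1.0, featureCounts 2.0.1 and DESeq2 1.40.2 on GRCm38. Per the file headers, the deposited values are raw counts of read pairs over exons of Ensembl 84 genes, with no option for multimapping reads or strand, so near-identical copies and antisense genes can lose or share reads. Of 47729 gene IDs, 47224 matched a symbol in GENCODE M21. Groups came from sample titles. Libraries of a group differed beyond sampling noise (chi-square per degree of freedom 2.72 to 58.5).

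Each set was fitted on its own with edgeR 4.0.16 (R 4.3.3; TMM, low counts removed by filterByExpr at 10, the robust quasi-likelihood fit, 1 term a group), on 14796 untreated and 16641 treated genes, with adjustment over all of them. The biological coefficient of variation was 0.208 and 0.0435. Scripts were tested on simulated data. CPM and TPM were computed here, CPM comparable only within a set. Alternatives were DESeq2 1.42.0, its size factors, no filter, a GC offset, only the groups compared, a replicate block, and leaving out each library. Sums of Tdg with its copies were chosen after seeing the data. Leaving out a library of a pair assumes that the lone library varies like the other groups.

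The members and lists were chosen with earlier results of these data known. All 9 members are named in every comparison, and of each list the called genes with the smallest p, at most 3 a comparison, of which some are printed and 1 is not reported here. Sequences are RefSeq's on GRCm38.p6, with 7 of the 9 members used. Replicate numbers did not pair the treated libraries.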

Additional observations from a re-analysis of the deposited data

Results flagged for a closer look

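In the untreated Dux n=1 clones, Gadd45b was at 25.6 CPM in clone 22 and 11.5 to 12.8 in the others, a gap of 0.911 of the group's whole range. Chance alone marks a group of this size in about 5% of cases.

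The response to GSK-3484862 differed between genotypes, by a test of the difference itself in edgeR, for 4 of the 9 genes. For KO22 minus WT, where 31.8% of all genes were called, the log2 difference was 0.45 for Tet1, -0.45 for Tet2 and 0.95 for Gadd45b. For N22 minus WT (11.1% of all genes) it was 0.16 for Tet1, -0.36 for Tet2 and -0.70 for Gadd45a. For N22 minus KO22 (18.6%) it was -0.30 for Tet1, -0.46 for Gadd45a and -0.65 for Gadd45b. DESeq2 did not call Tet1 for N22 minus WT (adjusted p 0.112) or Gadd45a for N22 minus KO22 (0.0968). Both of these calls were also lost without some single libraries. WT, KO22 and N22 share libraries across these comparisons.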

How the results depend on the processing

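Of 135 member values, 51 were called by edgeR; none of these changed sign, 35 kept their call in every setting and 16 lost it in some. DESeq2 lost 8, the GC offset 3, DESeq2's size factors 1, the fit of only the compared groups 1 and no filter 0. Replicate numbers did not pair the libraries (correlations of deviations between -0.041 and 0.0674 over 15 pairs of groups). The fit with a replicate block lost 0 calls and gained Tet1 for KO22 against WT with the compound (-0.08, adjusted p 0.0377), 4 members called in place of 3. The lowest count of a member in a library was 124, for Tet3.

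The count of members called in Dux-KO against E14 was 2 with DESeq2 and 1 to 2 leaving out 1 library. For Dux n=1 against E14 it was 1 with only the compared groups. For N22 against KO22 with the compound it was 1 with the GC offset, only the compared groups or DESeq2, and 1 to 2 leaving out 1 library. Leaving out 1 library gave 3 to 5 for N22 against WT and 2 to 5 for N22 against KO22 with DMSO, and 1 to 3 for KO22 against WT and for N22 against WT with the compound.

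Over all genes, the calls in Dux-KO against E14 went from 3016 to 963 with the GC offset, to 931, 1739 and 1171 without E14 library 1, 2 or 3, and to 1977 without clone 15. Those in Dux n=1 against E14 went from 1355 to 321 with the GC offset, 2450 with only the compared groups, 2515 with DESeq2, 24, 344 and 52 without E14 library 1, 2 or 3, and 351 without clone 17. DESeq2 called 1178 in place of 1844 for N22 minus WT and 2047 in place of 3101 for N22 minus KO22 in the responses. With the compound it called 2451 in place of 3728 for KO22 against WT, and 935 in place of 1606 for N22 against WT, where leaving out any 1 library gave 884 to 972. With DMSO, N22 against WT went from 4221 to 2811 without N22 library 2.

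Some values that the main test did not call changed sign. Gadd45b in Dux-KO against E14 was -0.028 with the GC offset and -0.23 to 0.54 leaving out 1 library, and in Dux n=1 -0.012 and -0.15 to 0.34. Mbd2 with the compound in WT was 0.0078 with DESeq2's size factors, 0.0077 with DESeq2 and -0.11 to 0.10 leaving out 1 library, and in N22 -0.039 to 0.20. In KO22 it was -0.021 without the filter, -0.037 with the GC offset, -0.036 with the replicate block and GC offset, and -0.083 to 0.11 leaving out 1 library. Tdg in KO22 was -0.018 without the filter, -3.7e-05 with its copies and -0.12 to 0.17 leaving out 1 library. Leaving out 1 library gave -0.49 to 0.054 for Tet3 in KO22 against WT with DMSO and -0.11 to 0.015 for Tet1 in N22 against KO22 with the compound. The cause was not tested.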
